A study of Homo sapiens with 12 samples.

Results

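A β-catenin shRNA and dominant-negative Tcf4, which both block Wnt signalling, were compared in derivatives of 1 colorectal carcinoma line: the change of each gene with the shRNA, minus its change with dominant-negative Tcf4. All 12 of the 12 arrays of the series entered this comparison, since it needs both lines with and without induction, and the same interaction was tested in every gene. Ls174T-pTER-β-catenin cells make the short hairpin RNA against β-catenin when doxycycline is given, and 3 arrays without doxycycline stand beside 3 after 72 h of it. Ls174T-L8 cells make dominant-negative Tcf4 under doxycycline, again with 3 arrays without it and 3 after 24 h. All cells derive from Ls174T and grew in RPMI with 5% fetal calf serum. Neither line has an array of doxycycline without a construct here, and the labels do not say whether a line is 1 clone or whether arrays of a group are separate cultures, so p-values measure the spread between arrays. The means of blocking, the derivative and the duration of induction (72 h against 24 h) cannot be told apart in any difference below.

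In cells with active Wnt signalling, β-catenin enters the nucleus and binds TCF and LEF factors, of which Tcf4 (gene TCF7L2) is the main one in gut epithelium, and turns them from repressors into activators. Dominant-negative Tcf4 lacks the part that binds β-catenin and occupies the target genes without activating them. β-catenin has a second site of work outside the nucleus, where it links cadherins to the actin skeleton at adherens junctions. In the intestinal crypt Wnt signalling keeps stem and progenitor cells dividing, and cells that leave its reach stop dividing and become absorptive, mucous or other mature cells.

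The arrays gave a signal in arbitrary units for 54675 probe sets, with medians between 12.1 and 15.3 per array, and 12386 genes were bright enough to test. All 12 markers of colorectal epithelium that were read, EPCAM and CDX2 among them, were above the filter on dim genes (a signal of 10.2) in some group. Of 14 fibroblast, 12 leukocyte and 9 endothelial markers, 4, 5 and 5 lay below it in every group. The fibroblast markers summed to 304 and 447 in the shRNA line (uninduced and induced) and 303 and 387 in L8, against sums of 20756 to 39518 for the epithelial markers; LUM among them stood at 99.1 on the induced L8 arrays and between 4.5 and 21.8 elsewhere. The ratio of 3′ to 5′ signal of the ACTB control, a sign of RNA and labelling quality, lay between 1.13 and 1.16 on the induced L8 arrays and between 1.25 and 1.39 on the other 9, and that of GAPDH between 0.97 and 1.05 on all 12. The part of that shift in the results was not tested.

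The constructs were read first, in a separate limma fit of all probe sets other than the controls, with the adjustment over those. The brightest of 3 probe sets of CTNNB1, the gene of β-catenin, gave signals of 3816, 3961 and 3575 in uninduced and 173, 164 and 132 in induced cells of the shRNA line. In L8 it gave 3342, 3012 and 3290.4 before and 3379.5, 4100.0 and 3423 after induction. β-catenin mRNA was lowered in the shRNA line, with a difference of changes of -4.78 ± 0.15 on the log2 scale (limma, adjusted p = 1.96e-11). A further probe set gave -4.26, and the dimmest -0.36 (adjusted p = 0.715). Of 7 probe sets of TCF7L2, 2 differed. The first gave 142, 88.7 and 93.4 in uninduced and 1242, 811 and 1806 in induced L8 cells, against 75.3, 79.8 and 77.0 and 105, 96.8 and 125 in the shRNA line, a difference of -3.04 ± 0.32. The other had a difference of -2.29 ± 0.20. Of the other 5, 4 had differences between -0.03 and 0.07 that did not pass, and 1 was under the filter.

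Of the 12386 genes tested, 2185 (17.6%) changed to a different extent in the 2 lines: for 1118 (9.03%) the difference was positive, meaning that the change with the shRNA lay above that with dominant-negative Tcf4, and for 1067 (8.61%) it was negative. Among them 341 and 407 differed by at least 2-fold. Calls rest on limma's moderated test with a Benjamini-Hochberg adjusted p under 0.05, and every value below is a log2 difference or change ± its standard error unless called a signal. The median difference over all genes was 0.04. Each list count below is to be read beside the 9.03% positive and 8.61% negative of all genes. The count of positive differences was 645, and of negative ones 852, with each array centred on its median.

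Called differences were sorted by what each line did. In 682 genes the change with the shRNA passed and that with dominant-negative Tcf4 did not; 363 of these rose and 319 fell. In 780 the reverse held, and 330 rose and 450 fell with dominant-negative Tcf4. Both changes passed with opposite signs in 192 genes, 104 of which rose and 88 fell with the shRNA. Both passed with the same sign, larger with the shRNA, in 260 genes, and larger with dominant-negative Tcf4 in 214. In 57 neither single change passed. Passing in 1 line and missing in the other often came without a called difference: of 1785 genes called with the shRNA and not with dominant-negative Tcf4, 682 (38.2%) differed, and of 2023 in the reverse case 780 (38.6%) did. Of 2240 genes that changed the same way in both lines, 474 (21.2%) differed in extent. The uninduced lines themselves differed in 1214 (55.6%) of the genes with a called difference and in 4625 (37.3%) of all genes tested. Both comparisons share the uninduced arrays, so these shares are given side by side and not read further.

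**Figure D1:**
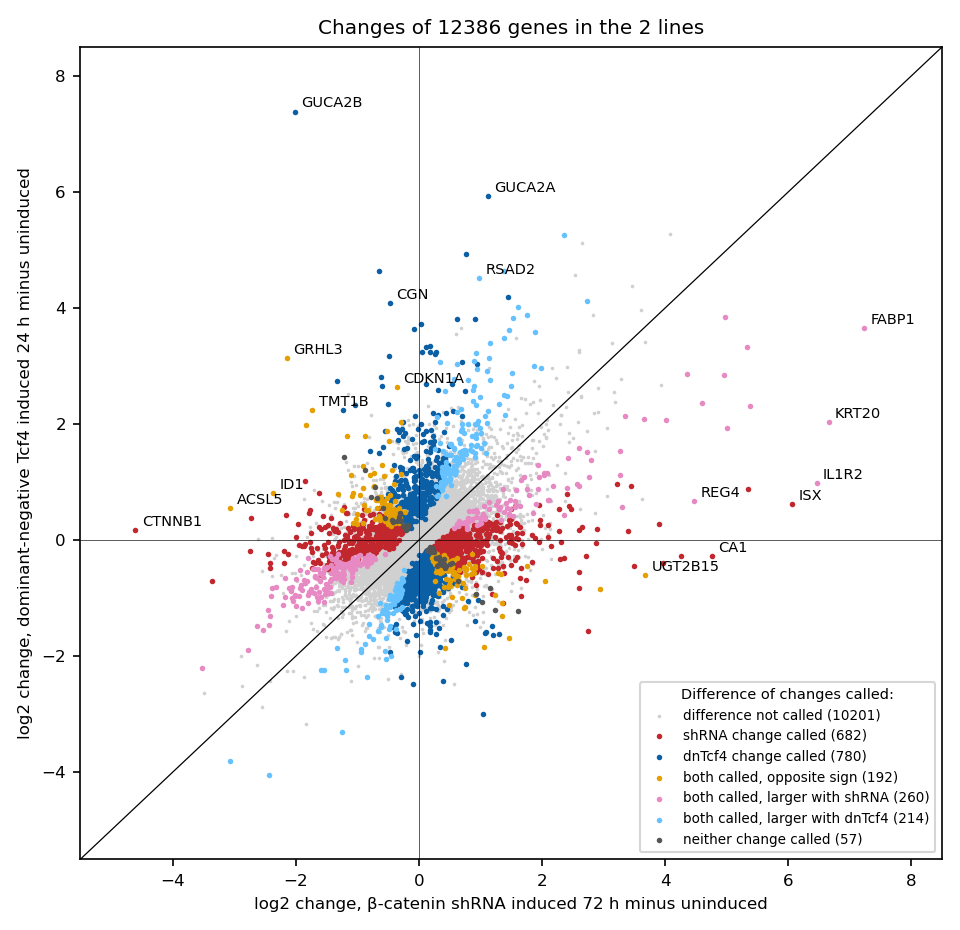
Each point is 1 of 12386 genes, by its log2 change after 72 h of the β-catenin shRNA (x axis) and after 24 h of dominant-negative Tcf4 (y axis), each a mean of 3 induced minus 3 uninduced arrays; colours give the class of the 2185 called differences and the diagonal marks equal changes. CTNNB1 lies far left at -4.61, GUCA2B highest at 7.39, and FABP1, KRT20 and IL1R2 right of the diagonal.

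The cell division programme fell further with the β-catenin shRNA. Of 36 mitosis genes 31 (86.1%, against 8.61% of all genes) had a negative and none a positive difference, with a median of -0.84. With the shRNA 0 rose and 34 fell (median -1.33), and with dominant-negative Tcf4 0 rose and 25 fell (median -0.42); for comparison 17.4% of all genes fell with the shRNA, 20% fell with dominant-negative Tcf4, and 16.6% and 16% rose. CENPF, a kinetochore protein, stood at -1.72 in the shRNA line and -0.38 in L8, a difference of -1.34 ± 0.22 (limma, adjusted p = 0.000572). CENPF gave 238, 245 and 308 on the uninduced and 95.6, 65.4 and 80.2 on the induced arrays of the shRNA line, and 268, 233 and 240.2 and 218, 192 and 163 in the L8 line. Induced and uninduced signals did not overlap in either line, but the induced shRNA cells were lowered far more. ASPM, a spindle pole protein, had a difference of -1.32 ± 0.27, which was -0.45 and missed the threshold once probe sets ending in _x_at or _s_at were dropped. BIRC5 (survivin), of the chromosomal passenger complex, differed by -1.26 ± 0.13, and ANLN, a scaffold of the cleavage furrow, by -1.20 ± 0.20. FOXM1, a transcription factor of mitotic genes, stood at -1.54 in the shRNA line and -0.48 in L8, and the proliferation marker MKI67 by -1.55 in the shRNA line and -0.48 in L8.

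The replication list, which also holds regulators of S-phase entry, followed. 26 of 45 (57.8%) had a negative and 1 a positive difference (median -0.64), although nearly all fell in both lines. With the shRNA 0 rose and 44 fell (median -1.46), and with dominant-negative Tcf4 0 rose and 40 fell (median -0.84). TK1, the thymidine kinase of the salvage pathway, stood at -1.80 in the shRNA line and -0.31 in L8 (-1.49 ± 0.16, limma adjusted p = 1.16e-05). TK1 gave 1180.4, 1245 and 941 on the uninduced and 298, 327 and 337 on the induced arrays of the shRNA line, and 1155, 1171 and 1116 and 907, 1071 and 814 in the L8 line. All 3 induced signals lay below the uninduced ones in both lines. GINS4, of the replicative helicase, differed by -1.79 ± 0.57 (the call was lost without any 1 array other than the 3 induced shRNA arrays, and also under 3 other settings), POLE2, a subunit of polymerase epsilon, by -1.14 ± 0.18, and MCM10, an initiation factor, by -1.08 ± 0.17. The 1 member with a positive difference was TIPIN, named after its value was seen. Some genes fell in both lines and further with the shRNA. They were ranked where a group mean signal reached 64 and the call held without each array in turn. MYBL2, a transcription factor of dividing cells, differed most among these (-2.39 in the shRNA line and -0.82 in L8, difference -1.56 ± 0.22). Next to it came AUNIP, a DNA repair factor (-1.52), TXLNG, a taxilin (-1.52), TK1, and BICD1, an adaptor of dynein transport (-1.41), for which 3 of 5 other probe sets had the opposite sign without passing. Repair by homologous recombination and the S-phase checkpoint had 4 of 17 members with a negative difference and none with a positive one (median -0.27), RAD51AP1 (-1.27) and EXO1 (-1.09) in front, and 2 rather than 4 without any 1 array other than uninduced shRNA replicate 3, induced shRNA replicate 2, uninduced L8 replicate 1 and induced L8 replicate 3. The negative count of this list was also 2 with each array centred on its median or with 16 added to each signal before log2. It was 2 as well without the filter on dim genes or without a variance trend. With the shRNA 0 rose and 12 fell (median -1.12), and with dominant-negative Tcf4 0 rose and 13 fell (median -0.74).

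**Figure D2:**
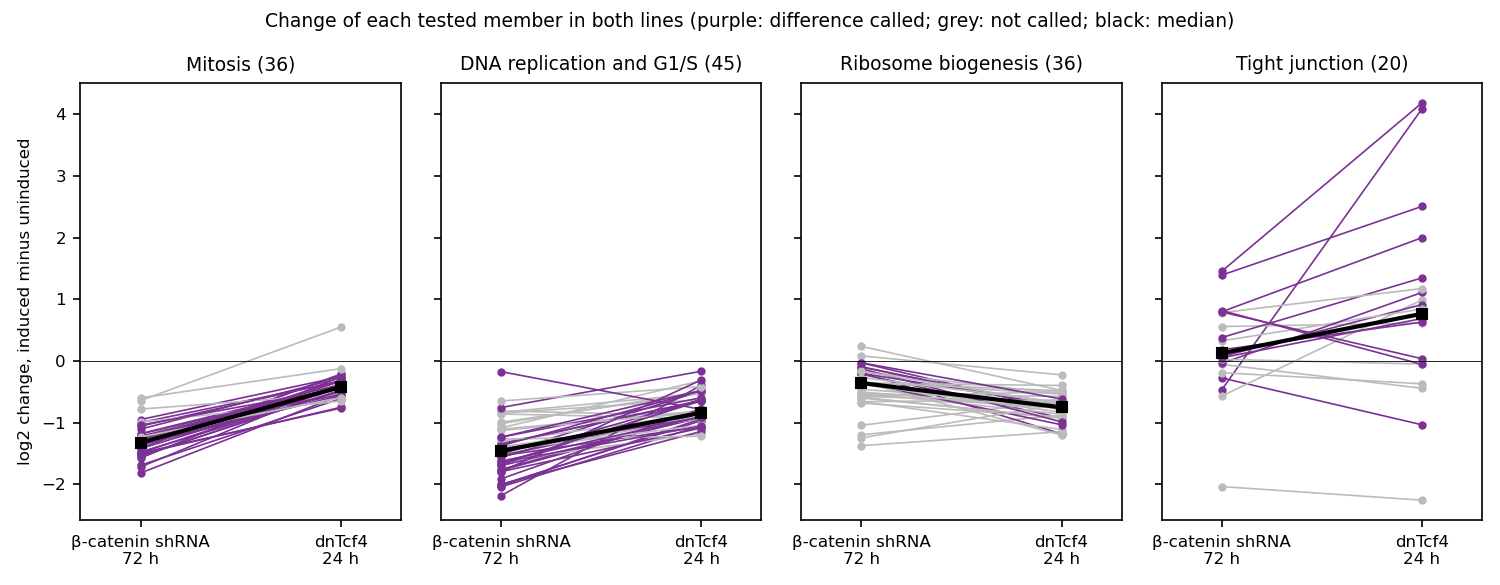
Log2 change of every tested member of 4 gene lists in the shRNA line and in L8 (dnTcf4), joined by a line per gene, purple where the difference was called; black squares are list medians. Mitosis genes run from a median of -1.33 up to -0.42, ribosome biogenesis genes from -0.36 down to -0.75, and tight junction genes from 0.12 up to 0.76.

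Promoters (RefSeq, GRCh38.p14, 250 bases before to 50 after the start) of the mitosis, replication, ribosome biogenesis, interferon and Wnt target lists were searched on both strands. The search was for short letters known as binding cores. None of the searched motifs contains another, and matches are a description only. The CHR element of mitotic promoters, TTTGAA, stood, for the mitosis list, in 21 of 30 (70%) tested members with a promoter sequence, against 4212 of 27305 promoters in all (15.4%). Any of 4 E2F cores (TTTCGCGC, TTTGGCGC, TTTCCCGC or TTTGCCGC) stood, for the replication list, in 21 of 39 (53.8%) tested members with a promoter sequence, against 908 of 27305 promoters in all (3.33%). The E-box CACGTG, to which MYC binds, stood, for the ribosome biogenesis list, in 12 of 30 (40%) tested members with a promoter sequence, against 2030 of 27305 promoters in all (7.43%). For the interferon list the shortened interferon element GAAANNGAA stood in 17 of 26 (65.4%) tested members with a promoter sequence, against 2264 of 27305 promoters in all (8.29%). The TCF core CTTTGAT stood in 1 of 15 Wnt targets and 2.64% of all promoters. Split by the call, members with a called difference against the other members, the letters stood in 18 of 26 against 3 of 4 for CHR, 11 of 23 against 10 of 16 for E2F, 4 of 9 against 8 of 21 for the E-box and 5 of 9 against 12 of 17 for the interferon element; these splits were not tested. Of the 6 Wnt targets with a called difference and a promoter sequence, 0 held the TCF core, and no promoter is shown for that list. For each other list the promoter of 1 member with a called difference that holds the letters is shown. It is an example and need not be the member with the largest difference. Sequences run 5′ to 3′ on the gene's strand, with the matched letters in capitals.
CENPF promoter, chr1:214602945-214603244, strand +: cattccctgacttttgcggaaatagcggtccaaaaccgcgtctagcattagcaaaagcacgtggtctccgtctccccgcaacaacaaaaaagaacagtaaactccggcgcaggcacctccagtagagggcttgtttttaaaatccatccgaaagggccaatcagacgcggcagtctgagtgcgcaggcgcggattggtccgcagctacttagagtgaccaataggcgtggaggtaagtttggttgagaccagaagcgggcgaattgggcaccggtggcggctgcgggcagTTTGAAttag
POLE2 promoter, chr14:49688165-49688464, strand -: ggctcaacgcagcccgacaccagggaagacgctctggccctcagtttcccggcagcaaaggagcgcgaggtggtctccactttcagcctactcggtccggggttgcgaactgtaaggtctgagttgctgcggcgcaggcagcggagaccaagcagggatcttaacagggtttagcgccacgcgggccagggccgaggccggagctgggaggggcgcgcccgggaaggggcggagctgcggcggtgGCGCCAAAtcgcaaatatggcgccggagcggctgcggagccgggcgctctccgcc
UTP20 promoter, chr12:101279855-101280154, strand +: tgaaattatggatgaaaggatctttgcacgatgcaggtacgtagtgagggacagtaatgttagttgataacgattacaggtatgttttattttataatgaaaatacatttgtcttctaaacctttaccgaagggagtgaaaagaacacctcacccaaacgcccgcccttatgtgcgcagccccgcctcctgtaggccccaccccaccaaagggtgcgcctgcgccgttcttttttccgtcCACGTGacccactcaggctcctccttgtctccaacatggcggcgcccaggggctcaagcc
ISG20 promoter, chr15:88638766-88639065, strand +: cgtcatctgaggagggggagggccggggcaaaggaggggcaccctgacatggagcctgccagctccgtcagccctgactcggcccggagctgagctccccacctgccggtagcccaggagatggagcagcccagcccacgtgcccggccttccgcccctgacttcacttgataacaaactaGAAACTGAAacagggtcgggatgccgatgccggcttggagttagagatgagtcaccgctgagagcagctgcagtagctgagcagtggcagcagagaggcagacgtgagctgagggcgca

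For some growth genes the order was reversed, with a deeper fall in L8. Of 36 ribosome biogenesis genes 10 (27.8%, against 9.03% of all genes) had a positive and none a negative difference, with a median of 0.34. With the shRNA 0 rose and 21 fell (median -0.36), and with dominant-negative Tcf4 0 rose and 35 fell (median -0.75). HEATR1, needed for transcription of ribosomal RNA, stood at -0.19 in the shRNA line and -1.18 in L8 (difference 0.99 ± 0.18, limma adjusted p = 0.000971). HEATR1 gave 344, 392 and 464 on the uninduced and 358, 349 and 336 on the induced arrays of the shRNA line, and 254, 234 and 284 and 102, 117 and 120.3 in the L8 line. The signals overlapped in the shRNA line and were separate in L8. UTP20, of the small subunit processome, differed by 0.86 ± 0.21, the helicase DDX10 by 0.76 ± 0.22, and BYSL, a small subunit assembly factor, by 0.71 ± 0.16. For DDX10 the call was lost without any 1 of uninduced shRNA replicates 1 and 2 or induced shRNA replicate 1. With each array centred on its median 6 of the 36 had a positive difference.

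Nucleotide synthesis genes had 6 of 21 positive and 1 negative called differences (median 0.31). With the shRNA 0 rose and 12 fell (median -0.38), and with dominant-negative Tcf4 1 rose and 17 fell (median -0.73). CAD, the enzyme that starts pyrimidine synthesis, stood at -0.23 in the shRNA line and -1.27 in L8 (1.04 ± 0.18), ADSL, of purine synthesis, by 0.11 in the shRNA line and -0.83 in L8 (0.94 ± 0.20), and IMPDH2, which commits purines to guanine nucleotides, by 0.15 in the shRNA line and -0.64 in L8 (0.79 ± 0.13). ATIC, the last step of inosine monophosphate synthesis, differed by 0.73. SRM, spermidine synthase, differed by 1.06 ± 0.19 in the same sense, while SAT1, which breaks polyamines down, differed by -1.07 and SMOX, spermine oxidase, by -0.86, so that 1 of 10 polyamine genes were positive and 2 negative (median 0.03). Genes of the mitochondrial ribosome and protein import counted 9 positive and 1 negative of 27 (median 0.33). With the shRNA 1 rose and 11 fell (median -0.20), and with dominant-negative Tcf4 0 rose and 25 fell (median -0.54). TFB2M, a mitochondrial transcription factor, differed by 1.08 ± 0.14, TOMM20, an import receptor, by 0.84 ± 0.13 and TIMM50 by 0.73 ± 0.16, and the positive count was 5 without uninduced L8 replicate 1, uninduced L8 replicate 2 or uninduced shRNA replicate 3, and 3 with each array centred. MRPL4 had the negative difference (-0.56).

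Other lists tied to growth did not share that direction. Aminoacyl-tRNA synthetases had 2 of 17 with a positive and 2 with a negative called difference (11.8% each, against 9.03% and 8.61% of all genes, median 0.00). HARS1 at -1.25 and FARSB at 0.70 lay farthest apart. Respiratory chain subunits had 0 of 25 with a positive and 4 with a negative called difference (median -0.12), UQCRC2 lowest at -0.41 (not called with each array centred), and their negative count was 1 or 2 without any 1 of uninduced shRNA replicate 1, induced shRNA replicate 1, uninduced L8 replicates 1 and 3 and induced L8 replicate 2. It was 0 with each array centred and 10 of 25 with quantile normalization. Splicing factors, 19 of which fell in the shRNA line and 18 in L8, had 0 of 31 with a positive and 1 with a negative called difference (median -0.02), namely SF3B3, which missed the threshold once _x_at and _s_at probe sets were dropped. In the network around MYC the antagonist MXD1 rose in both lines, by 1.46 and 3.63, and its difference was -2.17 ± 0.21 (limma, adjusted p = 4.38e-06). MXI1, a relative of MXD1, differed by 0.69 and MAX, the partner of MYC, by -0.52, which was 0.29 without _x_at and _s_at probe sets and passed neither there nor with each array centred. The list had 1 of 11 with a positive and 2 with a negative called difference (median -0.15).

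Most Wnt target genes fell in both lines, and those that differed went both ways. Of 23 tested targets 7 had a positive difference (a deeper fall with dominant-negative Tcf4 in each) and 4 a negative one, with a median of 0.37. With the shRNA 0 rose and 19 fell (median -1.07), and with dominant-negative Tcf4 2 rose and 17 fell (median -1.58). CD44, the hyaluronan receptor, gave 1344, 1297 and 1368 uninduced and 1068, 1098 and 943 induced in the shRNA line, and 2816, 2532 and 2630.1 and 976, 878 and 898 in the L8 line. The fall was modest with the shRNA (-0.37) and large with dominant-negative Tcf4 (-1.54), a difference of 1.17 ± 0.12 (limma, adjusted p = 4.38e-06). BMP4, a growth factor of the BMP family, differed by 0.95 ± 0.21, the transcription factor MYB by 0.94 ± 0.18, and ZNRF3, a ligase that removes Wnt receptors, by 0.87 ± 0.22. LGR5, the R-spondin receptor of crypt stem cells, differed by 0.69 ± 0.16, AXIN2, the feedback scaffold, by 0.64 ± 0.21 and ASCL2, the stem cell transcription factor, by 0.74 ± 0.24. Of 4 bright probe sets of AXIN2, 1 had the opposite sign, at -1.92, and none beside the brightest passed. For AXIN2 the call was lost without any 1 array other than uninduced shRNA replicate 3, induced shRNA replicate 2, uninduced L8 replicate 3 or induced L8 replicate 2, and also under 6 other settings, and for ASCL2 the call was lost without any 1 array other than uninduced shRNA replicate 1, induced shRNA replicate 3 or induced L8 replicate 1, and also under 6 other settings.

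Lower with the shRNA were CEMIP, a hyaluronan-binding protein (-3.52 in the shRNA line and -2.2 in L8, difference -1.32 ± 0.24, not called without _x_at and _s_at probe sets), PHLDA1 (-1.17 in the shRNA line and -0.22 in L8, difference -0.95 ± 0.15) and cyclin D1, CCND1 (-0.88 in the shRNA line and -0.23 in L8, difference -0.65 ± 0.14). BAMBI, a decoy receptor for BMP and TGF-beta, rose with dominant-negative Tcf4 by 0.87 and stood at -0.04 with the shRNA. Crypt stem and progenitor genes beyond these had 2 of 10 with a positive and 3 with a negative called difference (median -0.35). CD24, a surface protein, rose by 0.94 and 2.95, RGMB, a BMP co-receptor, fell by 2.42 and by 1.31, the cell cycle kinase CDK6 fell by 0.48 and by 1.48, and LRIG1, which restrains growth factor receptors, fell by 2.54 and by 1.55, the shRNA value first. None of 26 Wnt receptor and destruction complex genes differed (median -0.03), though 7 changed in the shRNA line and 6 in L8. Among TCF/LEF factors and nuclear cofactors 2 of 21 were positive and 2 negative (9.52% each, near the 9.03% and 8.61% of all genes, median 0.02). The co-repressor TLE1 stood at -0.45 in the shRNA line and 0.68 in L8, and its relative TLE3 at 0.07 and -0.76. The Mediator kinase CDK8 stood at 0.27 in the shRNA line and -0.40 in L8, and the deacetylase HDAC1 at -0.05 and 0.33. For TLE3 the call was lost without any 1 of uninduced shRNA replicate 3, induced shRNA replicate 1, uninduced L8 replicate 1 or induced L8 replicates 1 and 2, and also under 4 other settings, and for HDAC1 the call was lost under 2 other settings.

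Many markers of absorptive and mucous cells rose in one or both lines, and some to a different extent. Absorptive enterocyte markers had 7 of 19 with a positive and 4 with a negative called difference (median 0.20), and 12 and 14 of them rose in the shRNA line and in L8. The widest gap of all named genes was that of GUCA2B, uroguanylin, a peptide hormone of surface cells. GUCA2B gave 12, 4.8 and 2.5 on the uninduced and 2.0, 0.6 and 1.1 on the induced arrays of the shRNA line, and 10.6, 0.6 and 13.2 and 868, 739.9 and 1019.5 in the L8 line. Its signal was high on the induced L8 arrays and near the floor on the other 9. The difference was -9.40 ± 1.15 (limma, adjusted p = 3.8e-05), or -5.60 with 16 added to each signal before log2, which damps values near the floor of 1. GUCA2A, guanylin, gave 1.6, 1.1 and 11.4 and 7.8, 2.2 and 12.2 in the shRNA line, and 26.1, 16.5 and 24.1 and 1303, 1123 and 1595 in the L8 line, a difference of -4.80 ± 0.99. Both hormones rose after 24 h of dominant-negative Tcf4 and stayed dim after 72 h of the shRNA.

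Other absorptive genes took the opposite course. CA1, a carbonic anhydrase of colonocytes, gave 9.6, 12.6 and 22.7 uninduced and 387, 285 and 492 induced in the shRNA line, and 18.2, 16.5 and 12.1 and 11.8, 10.0 and 17.4 in the L8 line. The signal was high on the 3 induced shRNA arrays alone. It rose by 4.76 with the shRNA and stood at -0.27 with dominant-negative Tcf4, a difference of 5.03 ± 0.48 (limma, adjusted p = 3.12e-06). ISX, an intestinal homeobox factor, gave 9.6, 8.4 and 9.4 and 577, 660.4 and 596 in the shRNA line, and 11.9, 12.2 and 9.4 and 17.9, 23.6 and 11.8 in the L8 line, a difference of 5.44 ± 0.38. Again the induced shRNA arrays stood apart from the other 9. KRT20, a keratin of surface epithelium, rose in both (6.66 and 2.03, difference 4.63 ± 0.36), from signals of 24.5 and 95.0 in the uninduced lines. FABP1, the fatty acid binding protein of enterocytes, differed by 3.57 ± 0.32, and its other probe set by 1.20 without passing. MTTP, which loads lipid onto lipoproteins, DPP4, a brush border peptidase, and PLAC8 rose in both lines and further with the shRNA, with differences of 1.61, 1.39 and 1.49. CA2, a further carbonic anhydrase, stood at -0.79 with the shRNA and rose by 1.53 with dominant-negative Tcf4.

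**Figure D3:**
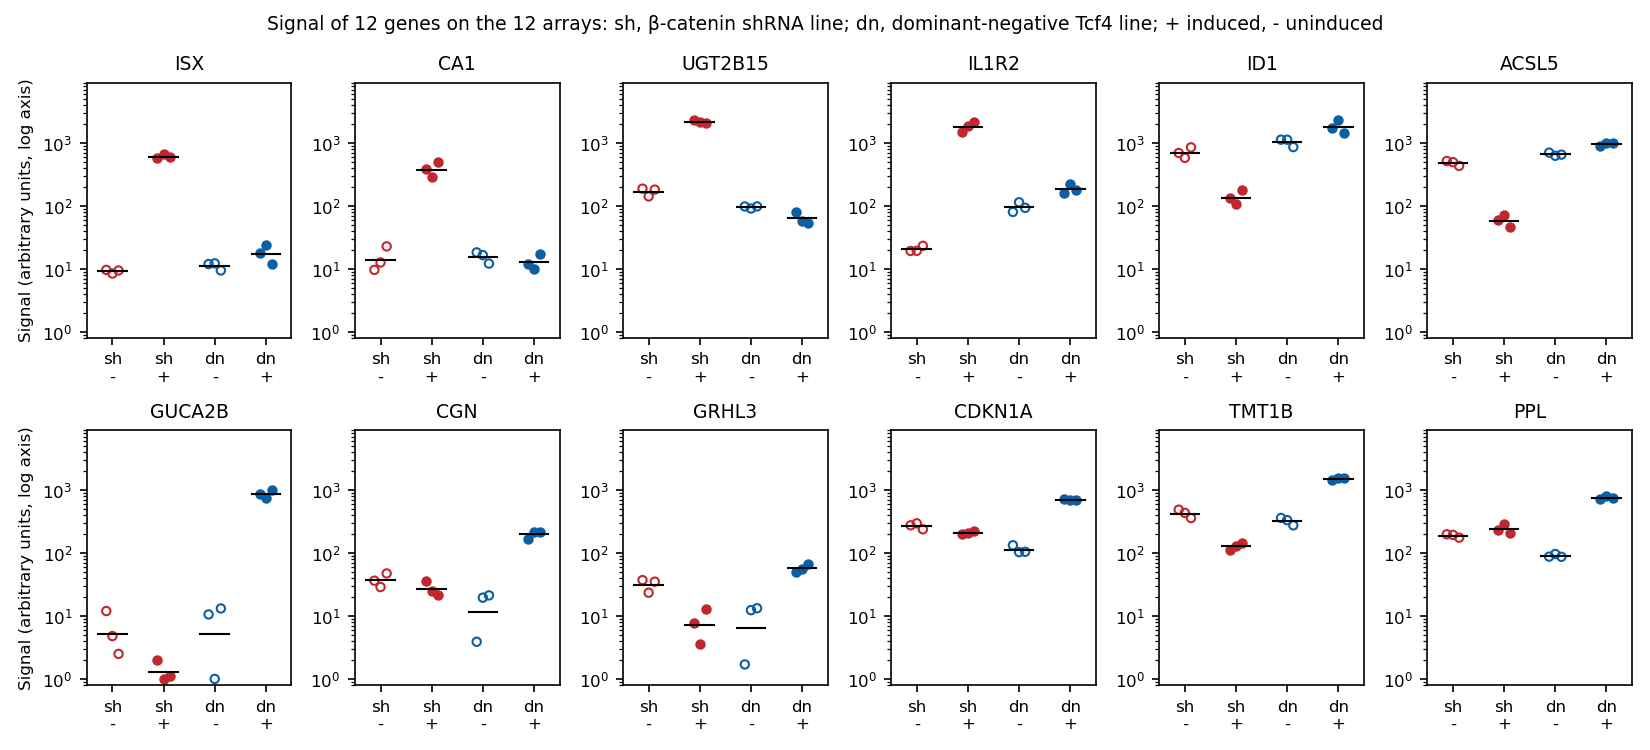
Signal of 12 genes on each array (log axis, values under 1 drawn at 1): open circles uninduced, filled circles induced, red the β-catenin shRNA line (sh) and blue the dominant-negative Tcf4 line (dn), with bars at the geometric mean of 3 arrays. ISX, CA1, UGT2B15 and IL1R2 are high on the induced shRNA arrays, GUCA2B, CGN, GRHL3, CDKN1A, TMT1B and PPL on the induced L8 arrays, and ID1 and ACSL5 are low on the induced shRNA arrays.

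Goblet cell markers, 17 of which rose in the shRNA line and 14 in L8, had 6 of 23 with a positive and 3 with a negative called difference (median -0.16). The membrane mucins MUC17 and MUC13 rose further with dominant-negative Tcf4, while MUC1 and MUC4 had differences of -0.26 and -0.16 that did not pass: MUC17 rose by 2.36 and 5.26 (-2.91 ± 0.58) and MUC13 by 0.43 and 2.57 (-2.13 ± 0.16), the shRNA value first. MUC2, the secreted gel mucin, and the trefoil peptides TFF1 and TFF2 rose further with the shRNA, with differences of 1.21, 1.94 and 1.13. ST6GALNAC1, which caps mucin sugars, rose by 1.23 with the shRNA and fell by 0.95 with dominant-negative Tcf4. MUC5B had a called difference of -2.09, but 0.027 with the offset of 16, and the call was lost without any 1 array other than uninduced shRNA replicate 1, uninduced L8 replicates 1 and 3 or induced L8 replicate 1, and also under 4 other settings. The list of Paneth cell markers includes REG4 and NUPR1, the latter also among the ATF4 response genes below. Of its tested members 3 rose and 5 fell with the shRNA, and 1 rose and 1 fell with dominant-negative Tcf4. They had 4 of 8 with a positive and 3 with a negative called difference (median 0.19): REG4, a secreted lectin, rose by 4.47 and 0.67 (3.80 ± 0.13), the trypsinogen PRSS2 differed by 2.42, the defensin DEFA6 by -2.66 (-0.81 with the offset) and the lectin REG1A by -1.61. PLA2G2A, a secreted phospholipase, fell in both lines and further with dominant-negative Tcf4 (1.37). Of the enteroendocrine markers, 3 were bright enough, and ISL1 differed (0.65), although the call was lost without any 1 array other than uninduced shRNA replicates 1 and 3, induced shRNA replicate 2, uninduced L8 replicate 3 or induced L8 replicate 3, and also under 3 other settings.

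Transcription factors of the gut had 3 of 18 with a positive and 5 with a negative called difference (median -0.05). Besides ISX, GRHL3, a grainyhead factor of barrier epithelium, moved in opposite directions: GRHL3 gave 37.3, 23.5 and 35.2 on the uninduced and 7.7, 3.6 and 12.8 on the induced arrays of the shRNA line, and 1.7, 12.4 and 13.3 and 50.2, 56.6 and 66.7 in the L8 line. The induced arrays were low in the shRNA line and high in L8, without overlap. Its difference was -5.28 ± 0.93 (limma, adjusted p = 0.000955), or -2.59 with the offset of 16. ELF3, an epithelial Ets factor, KLF4, a factor of post-mitotic surface cells, and the Notch target HES1 rose in both and further with dominant-negative Tcf4, with differences of -1.13, -1.04 and -1.12. FOXA1 rose by 0.63 with the shRNA and stood at -0.38 with dominant-negative Tcf4. Of 8 keratins 4 were positive and 3 negative (median -0.73): with KRT20, the simple keratins KRT8, KRT18 and KRT19 favoured the shRNA (1.03, 0.34 and 1.03), while KRT15, KRT80 and KRT7 favoured dominant-negative Tcf4 (-3.17, -2.31 and -1.80), KRT15 at -1.49 with the offset. Without _x_at and _s_at probe sets the difference of KRT7 was 0.28, short of the threshold. KRT8, KRT18 and KRT19 were already brighter in uninduced L8 cells (5243, 9140 and 2480) than in the uninduced shRNA line (1572, 7013 and 815).

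Tight junction genes differed in both directions. Of 20 tested, 9 (45%) had a negative and 3 a positive difference, with a median of -0.48. With the shRNA 6 rose and 1 fell (median 0.12), and with dominant-negative Tcf4 12 rose and 2 fell (median 0.76). CGN, cingulin, a plaque protein that ties the junction to myosin, led: CGN gave 36.5, 28.9 and 47.6 on the uninduced and 35.6, 24.7 and 21.5 on the induced arrays of the shRNA line, and 3.9, 19.6 and 21.3 and 169, 214 and 220.5 in the L8 line. The induced L8 arrays were high and the shRNA line overlapped, and the difference was -4.56 ± 0.67 (limma, adjusted p = 0.000193; -3.17 with the offset of 16). CLDN4, a barrier claudin, rose by 1.39 and 2.5, and occludin, OCLN, stood at -0.04 with the shRNA and rose by 1.11 with dominant-negative Tcf4. TJP3, a scaffold, differed by -1.20 ± 0.20. CLDN23 differed by -2.73 (-1.01 with the offset), but the call was lost without any 1 array other than uninduced shRNA replicate 2 or uninduced L8 replicate 1, and also under 3 other settings. PATJ, MARVELD2 and CLDN1 had positive differences of 0.87, 0.76 and 0.76.

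The adherens junction is where β-catenin itself works. Beside CTNNB1, 1 of 20 members had a positive and 2 others a negative difference (median -0.09), so that with CTNNB1 20% differed, close to the 17.6% of all genes. CDH17, the intestinal cadherin, gave 312, 150.4 and 284 uninduced and 1004, 1241 and 1199 induced in the shRNA line, and 2234, 1954 and 2129 and 2511, 2280.5 and 2231 in the L8 line, a difference of 2.12 ± 0.27. Its signal was already high in uninduced L8 cells. JUP, plakoglobin, the close relative of β-catenin, rose by 0.52 and 0.94; its difference was -0.43 ± 0.13, but the call was lost without any 1 array other than uninduced shRNA replicate 3, induced shRNA replicate 3 or induced L8 replicates 1 and 2, and also under 3 other settings. The receptor phosphatase PTPRF differed by -0.55. E-cadherin, CDH1, stood at 0.53 in the shRNA line and 0.38 in L8, and α-catenin, CTNNA1, at 0.42 in the shRNA line and 0.53 in L8, and neither difference passed (adjusted p = 0.758 and 0.464, limma). Desmosome genes had 2 of 8 with a positive and 2 with a negative called difference (median 0.06). PPL, periplakin, gave 199.7, 195 and 176 and 231, 292 and 207 in the shRNA line, and 88.0, 97.0 and 87.5 and 726, 800.1 and 755 in the L8 line, a difference of -2.72 ± 0.18 (adjusted p = 3.86e-08, limma). The highest signals were the 3 of induced L8. Integrins and basement membrane genes had 2 of 19 with a positive and 3 with a negative called difference (10.5% and 15.8%, against 9.03% and 8.61% of all genes, median 0.09). The difference of changes was -1.39 for ITGA3 and 1.25 and 1.09 for the laminin chains LAMB1 and LAMC1, against -1.05 for LAMB3.

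In the list of aldo-keto and redox enzymes 14 of 31 (45.2%, against 9.03% of all genes) had a positive and 2 a negative difference (median 0.39). With the shRNA 15 rose and 6 fell (median 0.27), and with dominant-negative Tcf4 7 rose and 9 fell (median 0.08). UGT2B15, a glucuronosyltransferase of steroids, gave 188, 141 and 182 uninduced and 2317, 2129.5 and 2058 induced in the shRNA line, and 98.0, 90.8 and 98.2 and 79.7, 58.5 and 53.8 in the L8 line. The 3 induced shRNA arrays stood far above all others. It rose by 3.68 in the first and fell by 0.60 in the second, a difference of 4.28 ± 0.21 (limma, adjusted p = 1.23e-09). Its relatives UGT2B28 and UGT2B17 differed by 4.54 ± 0.36 and 3.62 ± 0.37. The aldo-keto reductases AKR1C2, AKR1B10, AKR1C1 and AKR1C3 differed by 3.25, 3.06, 2.43 and 2.04. Genes within the UGT2B and AKR1C families, and the 4 called metallothioneins MT1E, MT1G, MT1H and MT1X, are near-identical, so their probe sets can share signal and are not separate counts. ALDH1A1, which makes retinoic acid, rose by 2.06 with the shRNA and fell by 0.71 with dominant-negative Tcf4, whereas its relative ALDH1A3 rose by 0.62 and 2.20. GPX2, a glutathione peroxidase of the gut, fell by 0.45 with the shRNA and by 1.99 with dominant-negative Tcf4 (difference 1.55 ± 0.13).

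**Figure D4:**
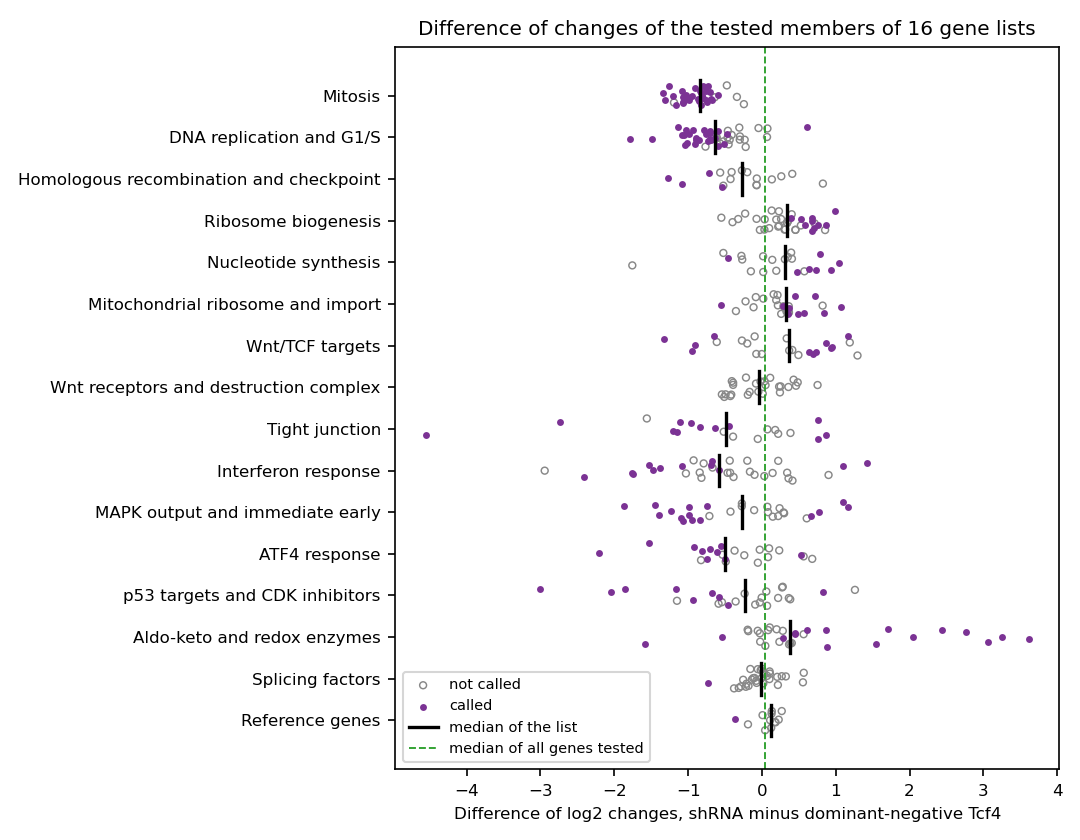
Difference of log2 changes (shRNA minus dominant-negative Tcf4) for each tested member of 16 gene lists, filled where called, with the list median as a black bar and the median of all genes (0.04) as a dashed line. Mitosis (-0.84) and replication genes (-0.64) lie left of the line, ribosome biogenesis genes (0.34) right of it, and Wnt receptor genes hold no called member.

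Most interferon response genes rose with dominant-negative Tcf4 and went both ways with the shRNA. 10 of 33 (30.3%) had a negative and 2 a positive difference (median -0.58). With the shRNA 16 rose and 5 fell (median 0.60), and with dominant-negative Tcf4 26 rose and 0 fell (median 0.78). ISG20, an antiviral exonuclease, stood at 0.62 in the shRNA line and 3.04 in L8 (-2.42 ± 0.25), and OASL and OAS1, of the oligoadenylate synthetase family, differed by -1.76 ± 0.35 and -1.52 ± 0.16. IRF7, a factor that drives interferon genes, fell by 0.96 with the shRNA and rose by 0.78 with dominant-negative Tcf4. RSAD2, viperin, an antiviral enzyme outside the list, gave 8.2, 11.7 and 10.7 and 18, 22.9 and 18.9 in the shRNA line, and 15.1, 11.6 and 11.5 and 303, 234 and 339 in the L8 line, a difference of -3.54 ± 0.38 (limma, adjusted p = 1.01e-05). IFI27 and IFI6 went the other way, at 1.43 and 1.09. Of 16 genes of MHC class I and peptide loading 9 rose in the shRNA line and 10 in L8, with 0 of 16 with a positive and 2 with a negative called difference (median -0.05), PSMB9 and PSMB10 of the immunoproteasome. For PSMB9 the call was lost without uninduced shRNA replicate 2, and for PSMB10 the call was lost without any 1 array other than uninduced shRNA replicate 3, induced shRNA replicate 2, uninduced L8 replicate 2 or induced L8 replicates 1 and 3, and also under 5 other settings. Cytokines and their receptors had 3 of 20 with a positive and 3 with a negative called difference (15% each, against 9.03% and 8.61% of all genes, median 0.24). IL1R2, a decoy receptor for interleukin 1, gave 19.2, 19.3 and 23.2 and 1502, 1847 and 2126 in the shRNA line, and 80.1, 114 and 93.1 and 163, 227 and 179 in the L8 line, a difference of 5.48 ± 0.24. Induction raised it in both lines without overlap, far more in the shRNA line. IL33, an epithelial alarm cytokine, differed by 4.45 ± 0.56 (2.63 with the offset), from uninduced signals of 5.8 in the shRNA line and 161 in L8. IL1RN, the receptor antagonist, rose by 1.75 and 3.89.

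Of 28 immediate early and ERK feedback genes, 11 (39.3%) had a negative and 4 a positive difference (median -0.27, or 0.07 with every probe set by itself). With the shRNA 13 rose and 3 fell (median 0.38), and with dominant-negative Tcf4 18 rose and 2 fell (median 0.67). IER3 fell by 0.72 with the shRNA and rose by 1.15 with dominant-negative Tcf4, and the phosphatase DUSP1 stood at -0.04 and rose by 1.41, with 1 other probe set at 0.51 that did not pass. DUSP5, which acts on ERK, rose by 2.73 and 4.12 (difference -1.39, or -0.89 with the offset, and not called without a variance trend), and FOSL1, of AP-1, differed by -1.23 ± 0.27. The inhibitors SPRY2 and SPRED1 differed the other way, by 1.17 and 0.78. In the EGF receptor family 4 of 15 were negative and none positive (median -0.20), with ERBB3 at -0.67 in the shRNA line and 0.68 in L8, the ligand TGFA at 0.73 in the shRNA line and 1.85 in L8 and EGFR at -0.86 in the shRNA line and 0.16 in L8.

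CDKN1A, which encodes the CDK inhibitor p21, was among the genes with opposite changes. CDKN1A gave 277, 298 and 239 on the uninduced and 199, 206 and 227 on the induced arrays of the shRNA line, and 134, 104 and 105 and 729, 695 and 704 in the L8 line. The induced signals lay below the uninduced ones in the shRNA line and far above them in L8. It fell by 0.36 with the shRNA and rose by 2.64 with dominant-negative Tcf4, a difference of -3.01 ± 0.17 (limma, adjusted p = 8.55e-09). CDKN1C, p57, fell by 2.00 with the shRNA and stood at 0.05 with dominant-negative Tcf4, and the repair factor DDB2 and GADD45A differed by -1.85 and -1.17. The list of p53 targets and CDK inhibitors had 1 of 25 with a positive and 8 with a negative called difference (median -0.23). The negative count was 5 without induced or uninduced replicate 1 of the shRNA line, and also with each array centred on its median. ATF4 response genes had 1 of 22 with a positive and 9 with a negative called difference (median -0.50). With the shRNA 1 rose and 12 fell (median -0.54), and with dominant-negative Tcf4 3 rose and 7 fell (median -0.07). DDIT4, an inhibitor of mTOR, stood at -0.06 with the shRNA and rose by 2.14 with dominant-negative Tcf4, and NUPR1 fell by 1.34 with the shRNA and stood at 0.18. ER chaperones had 1 of 29 with a positive and 5 with a negative called difference (median -0.25), CRELD2 and PDIA4 falling with the shRNA and rising with dominant-negative Tcf4 (differences -1.14 and -0.85). Apoptosis regulators had 0 of 20 with a positive and 3 with a negative called difference (median -0.30), namely MCL1, CFLAR and CASP9. None of the 3 passed without _x_at and _s_at probe sets, where the difference of CASP9 was 1.41. Their negative count was 5 without uninduced shRNA replicate 3.

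ID1, an inhibitor of differentiation factors and a target of BMP signalling, also took opposite directions. ID1 gave 695, 580.5 and 854 on the uninduced and 132, 106 and 178 on the induced arrays of the shRNA line, and 1131, 1128 and 861 and 1718, 2349.7 and 1461 in the L8 line. No induced signal overlapped the uninduced ones in either line. It fell by 2.37 with the shRNA and rose by 0.81 with dominant-negative Tcf4, a difference of -3.18 ± 0.28 (limma, adjusted p = 1.13e-06). ID3 fell in both lines, by 2.63 and by 1.48, a difference of -1.16 ± 0.21. LTBP1, which stores TGF-beta, rose by 1.34 with the shRNA and fell by 0.58 with dominant-negative Tcf4, and TGFB1 differed by 1.01 (the call was lost without uninduced L8 replicate 3). The BMP and TGF-beta list had 6 of 26 with a positive and 3 with a negative called difference (median 0.31), with 1 of 18 positive once _x_at and _s_at probe sets were dropped. Notch pathway genes had 2 of 22 with a positive and 2 with a negative called difference (9.09% each, near the 9.03% and 8.61% of all genes, median -0.09). The ligand JAG1 rose by 0.92 with the shRNA and fell by 0.48 with dominant-negative Tcf4. LFNG, which modifies Notch receptors, fell by 0.84 and by 2.37. The negative differences were those of HES1 (-1.12) and NRARP (-0.96). The Hippo/YAP list had 3 of 15 with a positive and 0 with a negative called difference (median 0.40): YAP1 (0.73), TEAD4 (0.62) and AJUBA (0.40). These are parts of the pathway itself, and no other member of the list was called. For AJUBA the call was lost without any 1 of uninduced L8 replicates 1 and 2 or induced L8 replicate 1, and also under 2 other settings, and for TEAD4 the call was lost under 1 other setting.

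Lipid genes held some of the widest opposite changes. ACSL5, which activates long-chain fatty acids, gave 518, 496 and 433 on the uninduced and 58.7, 70.8 and 45.9 on the induced arrays of the shRNA line, and 704, 627 and 653 and 903, 984 and 1016 in the L8 line. The 3 induced shRNA arrays were the lowest of all 12 and the 3 induced L8 arrays the highest. It fell by 3.06 with the shRNA and rose by 0.55 with dominant-negative Tcf4, a difference of -3.61 ± 0.19 (limma, adjusted p = 3.13e-09). CIDEB, a lipid droplet protein, differed by -3.82 ± 0.35, and PPARD, a nuclear receptor for fatty acids, by -2.68 ± 0.17. Fatty acid synthesis had 1 of 15 with a positive and 5 with a negative called difference (median -0.14), among them the elongase ELOVL6 (-1.15), with 1 of 7 negative once _x_at and _s_at probe sets were dropped. Fatty acid oxidation had 2 of 19 with a positive and 3 with a negative called difference (10.5% and 15.8%, against 9.03% and 8.61% of all genes, median -0.12). Cholesterol synthesis had 0 of 18 with a positive and 4 with a negative called difference (median -0.16), led by INSIG1, HMGCS1 and MVD (-0.91, -0.91 and -0.89), HMGCS1 not called without a variance trend. Hypoxia and glycolysis genes had 0 of 27 with a positive and 5 with a negative called difference (median -0.18): NDRG1 stood at 0.20 with the shRNA and rose by 1.90 with dominant-negative Tcf4, and VEGFA, the angiogenic factor, fell by 1.02 and rose by 0.37. The negative count was 3 without uninduced shRNA replicate 1, and also with each array centred on its median or without a variance trend. Lysosome and autophagy genes had 2 of 24 with a positive and 5 with a negative called difference (8.33% and 20.8%, median -0.24). The regulator TFEB and the protease CTSD had differences of -1.10 and -1.09. The negative count was 3 without uninduced shRNA replicate 2, and also with each array centred on its median.

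Beyond the lists, the largest opposite changes in favour of dominant-negative Tcf4 included that of TMT1B, a thiol methyltransferase: TMT1B gave 491, 437 and 361 on the uninduced and 111, 132 and 145 on the induced arrays of the shRNA line, and 363, 335 and 277 and 1434, 1573 and 1586 in the L8 line. Induced and uninduced signals were separate in both lines, and the difference was -3.97 ± 0.19 (limma, adjusted p = 1.1e-09). In favour of the shRNA were GASK1B, a Golgi-associated kinase-like protein (2.94 in the shRNA line and -0.85 in L8), IGFL2, a secreted growth factor-like protein (1.47 in the shRNA line and -1.69 in L8), and PRSS33, a serine protease (1.06 in the shRNA line and -1.84 in L8, difference 2.90, or 1.55 with the offset). IGFL2 had uninduced signals of 22.5 in the shRNA line and 357 in L8. Among genes that changed with the shRNA and missed the threshold with dominant-negative Tcf4, SPIB, an Ets factor, rose by 3.5 (difference 3.95, or 2.47 with the offset). NR4A1, an orphan nuclear receptor, BMP8B and UBE2G2, an enzyme of protein degradation at the ER, fell by 1.85, by 2.16 and by 2.45. The difference of NR4A1 was -2.87, or -1.65 with the offset. Both other probe sets of BMP8B had the opposite sign without passing, as had 1 of 3 others of UBE2G2. The difference of UBE2G2 was 0.59 without _x_at and _s_at probe sets.

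Some genes changed with dominant-negative Tcf4 and missed the threshold with the shRNA. Their falls named by rule included ODAM, a secreted protein (-2.48), ZNF703, a transcriptional co-repressor (-1.84), the Src family kinase FYN (-1.52), the potassium channel subunit KCNV1 (-1.54) and the histone demethylase KDM7A (-1.49). ZNF703 gave 135, 117 and 124 on the uninduced and 139, 170.5 and 166 on the induced arrays of the shRNA line, and 295, 319 and 299 and 64.9, 84.1 and 113 in the L8 line. Induced L8 cells were low, and in the shRNA line the change was 0.33. KDM7A started from like signals in both lines, 228 and 213, whereas FYN started from 17.1 in the shRNA line and 175 in L8. Beside the guanylins and CGN, the rises named by rule included GDPD3, a lipid phosphodiesterase (4.64), and the pseudogene transcript WFDC21P (4.93). With the offset of 16 their differences were -2.77 and -2.96 in place of -5.29 and -4.17. Genes that rose in both lines and further with dominant-negative Tcf4 included AQP3, a water and glycerol channel (1.61 and 4.02, difference -2.42 ± 0.17), and AHNAK2, a scaffold protein (-3.24). TRABD2A, a protease that acts on Wnt ligands, fell by 0.53 and by 2.05, and its 1 other probe set had the opposite sign without passing. TNNC1, a troponin, rose in both lines, by 5.38 and 2.30, and its difference of 3.07 was 1.51 with the offset.

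Clustered histones had 1 of 12 with a positive and 1 with a negative called difference (median -0.07). Of 12 reference genes 1, SDHA, had a called difference (-0.37, list median 0.13), but the call was lost without any 1 of uninduced shRNA replicate 1, induced shRNA replicate 1, uninduced L8 replicate 1 or induced L8 replicate 2, and also under 3 other settings. Among fibroblast markers 1 of 7, ACTA2, differed (0.84), though the call was lost without any 1 of uninduced shRNA replicate 3 or uninduced L8 replicates 1 and 2, and also under 1 other setting. Among leukocyte markers 1 of 5 differed, CORO1A (-2.11, or -1.37 with the offset), and among endothelial markers none of 2, with medians of 0.11, -0.17 and -0.20. These shares lie around or below the 17.6% of all genes. Of 195 genes named by rule, 105 had more than 1 bright probe set; all of these agreed in the sign of the difference in 86, and no probe set of opposite sign passed in the other 19. Among the 19 were CDK6, BIRC5, ERBB3, EGFR and PPARD, each with 1 probe set of opposite sign, at -0.31, 0.13, 0.20, 0.18 and 0.16.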

How the data were processed

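RNA of 12 samples was read on Affymetrix U133 Plus 2.0 arrays, 3 in each of 4 groups. The deposited values are 1 linear signal intensity per probe set and array, made by the authors with MAS5 in GCOS per the submitters' processing notes; trimming 2% of probe sets at each end gave a mean of 100.01 to 100.02 on every array. The genome build is not given in the sources used here, so gene positions are left out, and promoters carry their own RefSeq build.

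Signals were floored at 1 and taken to log2. Platform annotation updated through Entrez identifiers gave 1 symbol for 41097 of 54675 probe sets, several for 1801 and none for 11777; 62 controls and probe sets with several symbols or none were left out. The brightest probe set stood for each of 19775 genes, and 12386 with a mean log2 signal of at least the median over probe sets (3.35, a signal of 10.2) were tested. limma 3.58.1 in R 4.3.3 fitted the 4 group means with a variance trend (8 residual and 8.05 prior degrees of freedom), and the interaction (induced minus uninduced, shRNA line minus L8) was tested with Benjamini-Hochberg adjustment over all genes. The number of arrays limits the precision: the median standard error of a difference was 0.23.

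Named by rule are the 5 largest differences per class and direction (a group mean signal of at least 64, and a call that held without each array in turn) and up to 4 largest called differences per list, or all called ones for Wnt targets, TCF cofactors and adherens junctions. Other list members named were chosen after their values were seen. The members and the 48 gene lists (1165 entries, 1065 on the array) were chosen with earlier results of these data known. The fit was tested on simulated data without differences between the uninduced lines, with changes added to the induced shRNA arrays alone. Alternatives were quantile normalization, centring, an offset of 16, other filters, probe set choices and variance models, array weights, a replicate block, a 2-fold minimum and leaving out each array.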

Additional observations from a re-analysis of the deposited data

Results flagged for a closer look

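The change on induction differed between the shRNA line and L8 in 2185 genes by limma's test of the interaction. Among the named genes, 24 stand out because both single changes passed and took opposite directions. Higher with the shRNA and lower with dominant-negative Tcf4 were UGT2B15 (difference 4.28), GASK1B (3.79), IGFL2 (3.15), PRSS33 (2.90), ALDH1A1 (2.76), ST6GALNAC1 (2.18), LTBP1 (1.91), JAG1 (1.39), LAMB1 (1.25) and TOMM20 (0.84). These encode enzymes, secreted and matrix proteins, a Notch ligand and a mitochondrial import receptor. Lower with the shRNA and higher with dominant-negative Tcf4 were GRHL3 (-5.28), TMT1B (-3.97), CIDEB (-3.82), ACSL5 (-3.61), ID1 (-3.18), CDKN1A (-3.01), PPARD (-2.68) and CORO1A (-2.11). In the same sense followed IER3 (-1.87), IRF7 (-1.74), VEGFA (-1.39), ERBB3 (-1.35), CRELD2 (-1.14) and PDIA4 (-0.85). Whether the means of blocking, the line or the 72 h against 24 h of induction goes with these differences cannot be told apart.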

How the results depend on the processing

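Of 2185 calls, 1439 held without each of the 12 arrays in turn, and the total then lay between 1754 and 2181. With each array centred on its median, 645 positive differences, 106 opposite and 118 same-direction changes larger with dominant-negative Tcf4 were called. A called difference with neither change called was found for 96 of 23156 probe sets taken singly, and for 28 genes without a variance trend. Without probe sets ending in _x_at or _s_at 166 same-direction changes were larger in the shRNA line and 137 in L8, among fewer genes (9549). A 2-fold minimum left 748 differences (341 positive, 407 negative), 1068 changes in the shRNA line and 936 in L8; by class 248 with the shRNA, 224 with dominant-negative Tcf4, 112 opposite, 83 and 69 in the same direction (larger in the shRNA line and in L8) and 12 with neither. All other counts of called genes and of classes stayed within 1.5 times under the alternatives run.

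With line and replicate number as a replicate block 1836 differences passed, 915 positive and 921 negative. Deviations of same-numbered arrays correlated between -0.078 and 0.038, so the numbers are not taken to pair arrays. Under the block the mitochondrial ribosome count was 5, the respiratory chain count 1, the homologous recombination count 2 and the lysosome count 3.

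The difference of 5 named genes changed sign: UBE2G2 to 0.59, MAX to 0.29, KRT7 to 0.28 and CASP9 to 1.41 without _x_at and _s_at probe sets, and MUC5B to 0.027 with the offset of 16. The cause was not tested. Of 195 named genes 26 lost their call and kept their sign without some array. Under some other alternative 41 did, 26 of them with each array centred and 24 without a variance trend. UBE2G2, KRT7 and CASP9 lost their call as their sign changed and are not among the 41. Only 145 of the 195 had a fit without _x_at and _s_at probe sets. Genes named by class hold without each array by the rule that chose them. Without _x_at and _s_at probe sets fewer list members were tested, and the negative counts were 20 of 24 for mitosis, 17 of 34 for replication, 5 of 23 for interferon response, 6 of 22 for MAPK output, 4 of 15 for p53 targets, 3 of 14 for hypoxia, 3 of 16 for gut transcription factors, 2 of 23 for ER chaperones and 1 of 7 for fatty acid synthesis. The positive counts were 6 of 19 for redox enzymes, 4 of 15 for the mitochondrial ribosome, 3 of 18 for nucleotide synthesis, 2 of 5 for keratins, 1 of 4 for Paneth markers and 1 of 18 for the BMP and TGF-beta list. The median changed sign under some alternative in 22 of 48 lists, among them enterocyte, goblet, Paneth and keratin lists, whose called members went both ways.
Signals under about 10 are near the floor, where a log2 difference depends on the floor or offset.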
